A study of Mus musculus with 6 samples.

Results

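The genes described here encode 9 transporters, Slc43a2, Slc43a3, Slc7a5, Slc7a7, Slc7a8, Slc7a11, Slc3a2, Slc1a5 and Slc38a2, which carry neutral amino acids or cystine across the plasma membrane or belong to the same families. They were picked by gene symbol from a table of 54532 genes, and each symbol matched 1 gene. The choice was made with values of these same libraries in view, among them the difference of Slc43a2 between Model and Control, so the values of the 9 genes are given as a description. Counts of members past a threshold are given in the same way, beside the share of all genes, and no test is claimed from them. Of the 9 genes, 8 had a mean of at least 1 FPKM (fragments normalised to transcript length and library size) over the 6 libraries and entered the fit over all genes, and Slc43a3 did not.

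The cells were peritoneal macrophages of wild-type male C57BL/6J mice aged 6 to 8 weeks, drawn to the peritoneum by thioglycolate, an irritant broth, 5 days before collection. Control cells were left without treatment. Model cells received LPS, a bacterial cell wall component, at 500 ng/mL for 5.5 h and then ATP at 2 mM for 0.5 h, which together activate the NLRP3 inflammasome. MUS cells were given LPS and ATP in the same way and, besides, muscone, the macrocyclic ketone of musk, at 50 μM from 0.5 h before the ATP. Poly-A RNA was sequenced from 2 libraries per group, and the labels give the replicate number as the batch. Nothing in the labels says that the libraries of a group came from separate animals or cultures, so the spread between them may be technical.

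Amino acids cross the membrane of a macrophage through carriers that divide the work. The light chains of the SLC7 family, such as SLC7A5 (LAT1), SLC7A8 (LAT2), SLC7A7 (y+LAT1) and SLC7A11 (xCT), are exchangers that reach the surface only when joined to the heavy chain SLC3A2 (CD98), and SLC7A11 brings in cystine, the oxidised form of cysteine, in exchange for glutamate. SLC1A5 (ASCT2) and SLC38A2 (SNAT2) move glutamine and small neutral amino acids together with sodium, whereas SLC43A2 (LAT4) lets branched-chain amino acids, phenylalanine and methionine pass down their gradient. Cystine uptake feeds the synthesis of glutathione, and leucine inside the cell is sensed by the kinase complex mTORC1.

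The libraries held between 15526321 and 17135442 fragments on genes. Model replicate 1 stood apart with 24906 genes having at least 1 fragment, against 17406 to 19200 in the others. Control replicate 2 stood apart in genes that LPS is known to induce, with 183 FPKM of Tnf against 8.62 in Control replicate 1, and 34.2 against 0.550 FPKM of Il1b. Both Control libraries remained far below the other 4 libraries, in which Tnf lay at 654 FPKM or above and Il1b at 4750 FPKM or above. All 7 macrophage markers were expressed, with a summed level of 8426 to 13340 FPKM. The 32 markers of 6 other cell types (B cells, T cells, neutrophils, eosinophils, mast cells, and mesothelial and stromal cells) summed to at most 16.1 FPKM per cell type in any library. The eosinophil sum, which came from Siglecf alone while Epx, Prg2, Prg3 and Ear1 were listed at 0, was 2.46 to 4.06 FPKM in Control and 1.23 to 1.52 in the other groups. The T cell sum was 0.120 to 0.207 FPKM in Control and 1.40 to 3.21 in the others, of which Lck made up 1.37 to 2.85 FPKM, while Cd3d, Cd3e, Cd3g and Cd2 were at most 0.163 FPKM in any library. The neutrophil sum was 0.357 to 0.403 FPKM in Control and 0.611 to 1.68 in the others, mostly from Camp in the latter, and Ly6g and Elane were listed at 0 throughout. The part of these cells in the values below was not tested, and fewer cells of a type and less RNA per cell cannot be told apart in such libraries.

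Slc43a2, which lets branched-chain amino acids leave or enter the cell, was high in Control and close to absent in both treated groups. Its level was 27.5 and 31.1 FPKM in the Control libraries, 0.769 and 1.19 in the Model libraries, and 1.19 and 1.18 in the MUS libraries. Each Control library was thus far above each of the 4 treated libraries, and Model and MUS overlapped. The group means were 29.3 ± 2.52 FPKM in Control, 0.979 ± 0.297 in Model and 1.19 ± 0.00660 in MUS (SD, n = 2 each). Control was 30.0 times Model and 24.7 times MUS in these means. The low values rest on 109 and 185 fragments in Model and on 181 and 193 in MUS, against 6323 and 7145 in Control. On the log2(FPKM + 1) scale the difference between Model and Control was -3.94 (SE 0.21), with -4.01 in batch 1 and -3.87 in batch 2. This scale understates the change of a gene that falls to about 1 FPKM. The gene lies at chr11:75531694-75577575 on the plus strand of GRCm38. An antisense gene, Gm45606, overlaps its 5′ end on the other strand and had 144 and 106 fragments in the Control libraries, 0 and 3 in those of Model, and 0 in both of MUS. The library protocol names no step that marks strand, so reads of such overlapping genes cannot be told apart.

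Slc7a11, the cystine importer, showed the opposite order but no common Control level. It had 3.57 FPKM in Control replicate 1 and 64.8 in Control replicate 2, 77.6 and 117 in Model, with 136 and 110.0 in MUS. On the deposited FPKM scale all 4 treated libraries were above both Control libraries, but Control replicate 2 was 18.2 times Control replicate 1. As a share of the fragments on genes, Control replicate 2 (20643 of 17135442) was above Model replicate 1 (15251 of 15529580). Between the Control replicates, 17 of the 9794 genes tested (0.174%) were at least as far apart on the log2 scale. The means were 34.2 ± 43.3 FPKM in Control, 97.4 ± 28.0 in Model and 123 ± 18.0 in MUS (SD, n = 2 each). The log2 difference between Model and Control was 2.48 (SE 1.07), made of 4.11 in batch 1 and 0.84 in batch 2. Without Control replicate 2 it was 4.40, and without Control replicate 1 it was 0.55. The gene lies at chr3:49892526-50443614 on the minus strand, and the gene model Gm37498 inside it, on the same strand and of the annotation class TEC, had up to 197 fragments, against 1135 to 28513 fragments of Slc7a11.

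**Figure D1:**
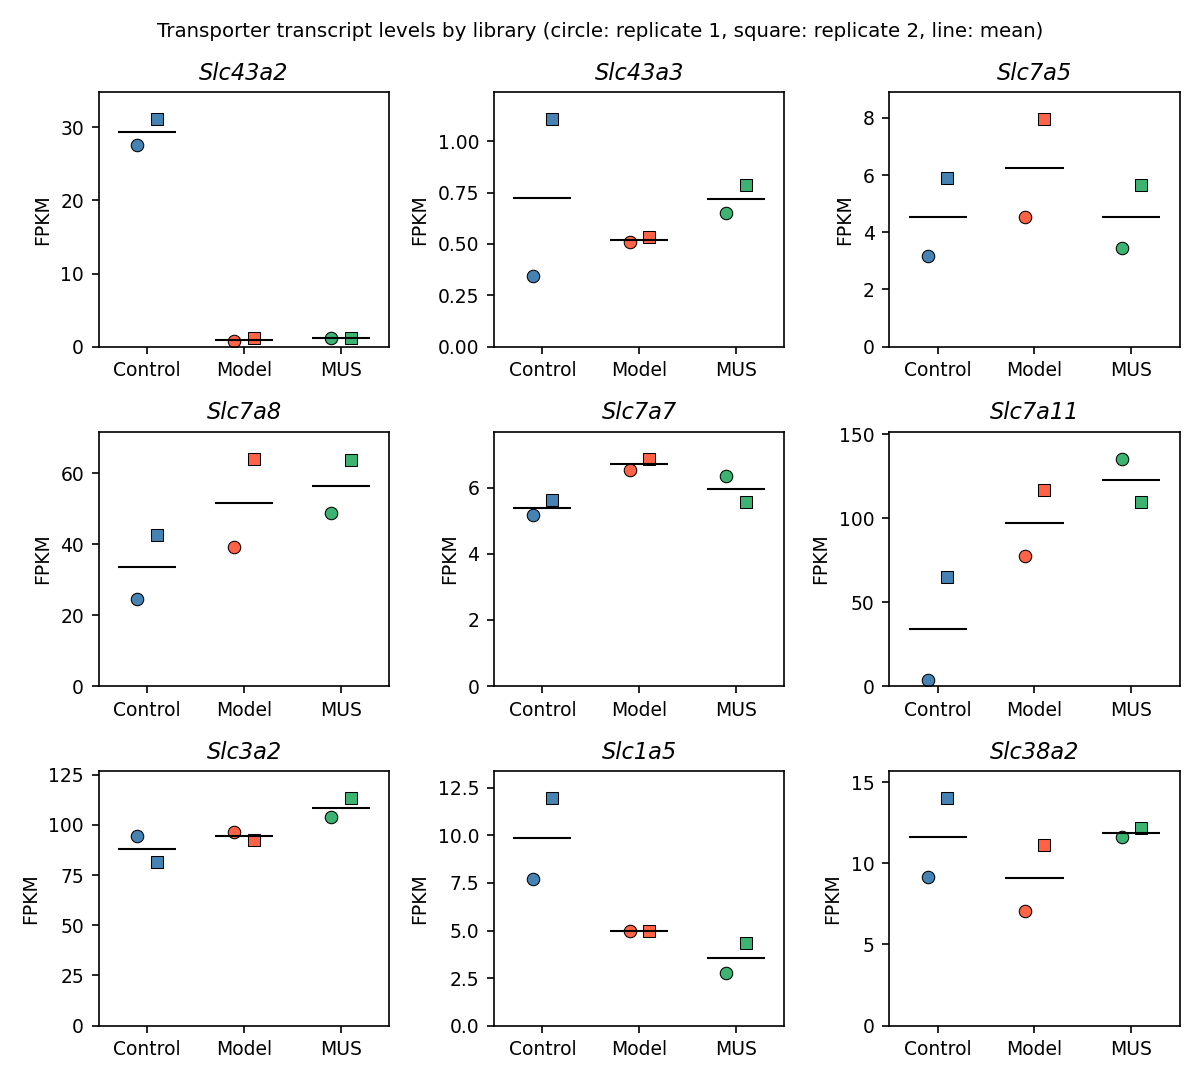
FPKM of each of the 9 transporter genes (vertical axes, linear from 0, one scale per gene) in the 2 libraries of Control, Model and MUS, with replicate 1 as circles, replicate 2 as squares and the group mean as a line. Slc43a2 lies at 27.5 and 31.1 FPKM in Control and at most 1.19 in the other 4 libraries, and the Control libraries of Slc7a11 lie at 3.57 and 64.8.

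Slc43a2 and Slc7a11 are the members with the largest ratio of highest to lowest FPKM over the libraries, and the 250 bases before their RefSeq start sites (GRCm38.p6) are printed so that the letters near each start can be seen. In Slc7a11 (chr3:50443614-50443863, minus strand), capitals mark TGATGCAA, the core letters of the amino acid response element that ATF4 is known to bind, read on either strand. In Slc43a2 (chr11:75531444-75531693, plus strand), capitals mark the CCAAT box on either strand.
Slc7a11: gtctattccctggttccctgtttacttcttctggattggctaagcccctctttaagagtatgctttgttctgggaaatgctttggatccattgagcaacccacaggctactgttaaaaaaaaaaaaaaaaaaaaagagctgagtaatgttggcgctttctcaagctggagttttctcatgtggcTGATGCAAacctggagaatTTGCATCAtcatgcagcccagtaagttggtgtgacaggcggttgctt
Slc43a2: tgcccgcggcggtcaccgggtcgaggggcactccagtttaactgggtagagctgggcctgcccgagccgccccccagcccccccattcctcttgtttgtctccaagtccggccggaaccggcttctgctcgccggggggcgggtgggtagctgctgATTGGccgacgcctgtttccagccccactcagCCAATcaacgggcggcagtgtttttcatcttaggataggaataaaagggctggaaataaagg
The Slc7a11 window holds the core letters at 66 bases and, on the other strand as TTGCATCA, at 47 bases before the start, with 11 bases between them. Among 32851 RefSeq windows of 300 bases (250 before and 50 after a start), 0.895% hold these letters at least once. The Slc43a2 window holds ATTGG at 94 bases and CCAAT at 62 bases before the start, and 37.4% of all windows hold CCAAT on either strand. Another Slc43a2 window holds CCAAT at 71 and 40 bases. The printed Slc7a11 window also holds ATTGG, at 216 bases before the start and left in small letters. Windows were at hand for 6 members, 11 windows in all, and not for Slc43a3, Slc7a5 and Slc1a5. TGATGCAA was also in 2 overlapping windows of Slc7a7 that share 1 site. The NF-κB letters GGGANTTCC were in 2 overlapping windows of Slc7a7, again 1 site (1.68% of all windows), and the antioxidant response letters TGACNNNGC were in the window of Slc38a2 (12.4% of all windows). Both strands were searched for each motif. These matches describe letters and are not evidence that a factor was bound.

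The heavy chain Slc3a2, the partner of the SLC7 light chains, was among the 2 most abundant of the 9 genes in each library. It had 94.4 and 81.8 FPKM in Control, 96.4 and 92.3 in Model, with 104 and 113 in MUS. On the deposited scale Control and Model overlapped, and both MUS libraries were above the other 4. Scaled by the fragments on genes, Control replicate 1 was above both MUS libraries, and both Model libraries were below Control. The log2 difference was 0.10 (SE 0.29) in Model vs. Control and 0.20 (SE 0.29) in MUS vs. Model, both smaller than their standard errors.

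Of the light chains, Slc7a8 (LAT2, for a wide range of neutral amino acids) had 24.7 and 42.7 FPKM in Control, 39.1 and 64.1 in Model, with 48.8 and 63.8 in MUS. Replicate 2 was the higher library in every group, and within each batch Model exceeded Control by 0.64 and 0.58 on the log2 scale. Slc7a5 (LAT1, for large neutral amino acids such as leucine) had 3.16 and 5.91 FPKM in Control, 4.53 and 7.95 in Model, with 3.46 and 5.65 in MUS. Its groups overlapped in every comparison, while within batches Model exceeded Control by 0.41 and 0.37. Slc7a7 (y+LAT1, which exports cationic amino acids in exchange for neutral ones) had 5.17 and 5.62 FPKM in Control, 6.54 and 6.87 in Model, with 6.35 and 5.55 in MUS. On the deposited scale its Model libraries were above the others, by 0.27 over Control (SE 0.20). It had 392 and 426 fragments in Control against 306 and 353 in Model. Scaled by the fragments on genes, its Model libraries were below both Control libraries. Slc7a7 overlaps the gene Oxa1l on the other strand, which had 607 and 877 fragments in Control and 242 to 352 in the treated libraries.

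The per-million scale of the deposited FPKM was not the same share of the fragments on genes in each library. It was 1.45 and 1.34 times the fragments on genes in Control and 0.909 to 0.998 times in the other 4 libraries. Scaling by the fragments on genes instead moved the median log2 difference of all genes in Model vs. Control from 0.04 to -0.42. On that scale the differences between Model and Control became -0.06 for Slc7a5, -0.20 for Slc7a7 and -0.44 for Slc3a2, and that of Slc7a8 went from 0.61 to 0.08 (0.01 with quantile normalization). Relative to the all-gene median, Slc7a5 was at 0.36, Slc7a7 at 0.21 and Slc7a8 at 0.49 (0.07 with quantile normalization). Slc3a2 was at -0.03 relative to it, and at -0.64 with quantile normalization. The direction of Slc7a5, Slc7a7 and Slc3a2 against Control, and the size of the Slc7a8 difference, therefore depend on the scale. With the all-gene median as reference, Slc7a5 (0.35 to 0.46) and Slc7a7 (0.21 to 0.30) kept a positive sign on each scale tried. The mean differences of Slc43a2 and Slc7a11 kept their direction, at -4.02 and 2.40 relative to the median, against -3.98 and 2.43 on the deposited scale. The Control and Model libraries of Slc7a11 nevertheless overlapped when scaled by the fragments on genes.

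Ratios between transporters in the same library are free of this scale. The 6 light chains known to pair with SLC3A2 (Slc7a5, Slc7a6, Slc7a7, Slc7a8, Slc7a10 and Slc7a11) were summed, of which Slc7a10 was listed at 0 in each library. At 0 fragments its level may still be up to 0.0621 to 0.101 FPKM, the level of 3 fragments. Slc7a11 made up 9.24% of the light chain FPKM in Control replicate 1, 53.4% in Control replicate 2, 59.9% and 59.3% in Model, with 69.3% and 59.0% in MUS. Slc7a8 made up 63.9% in Control replicate 1 and between 24.9% and 35.1% in the other 5 libraries. Control replicate 1 was thus the one library in which Slc7a8 and not Slc7a11 was the leading light chain. The summed light chains were 0.409 and 1.49 times Slc3a2 in Control, 1.35 and 2.14 times in Model, with 1.88 and 1.65 times in MUS.

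**Figure D2:**
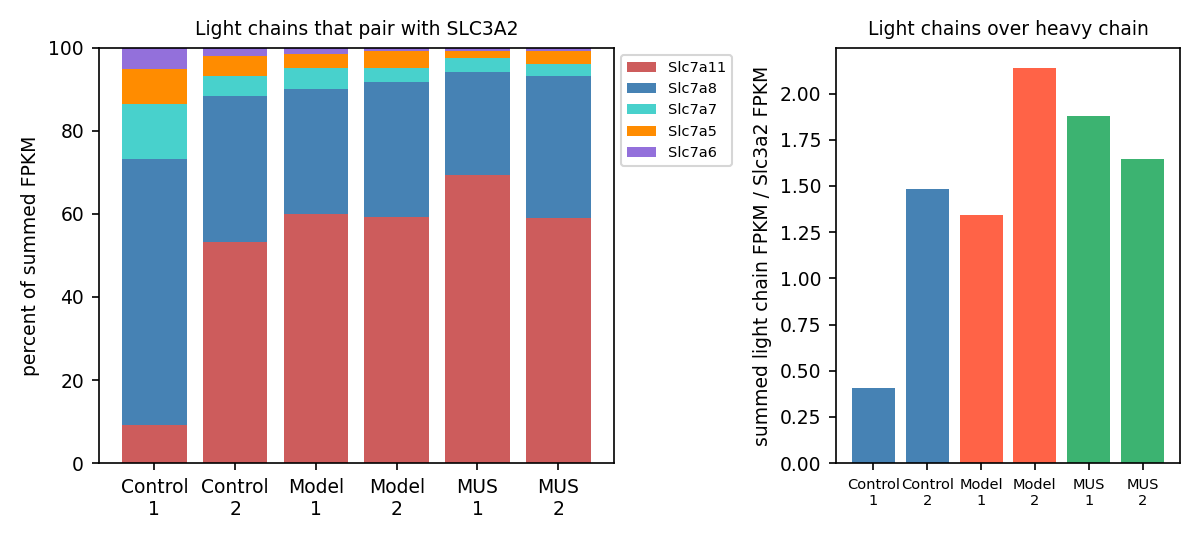
Left, the share of each light chain in the summed FPKM of the light chains (percent, stacked to 100) in each library, and right, the summed light chain FPKM divided by the FPKM of Slc3a2. Slc7a11 holds 9.24% in Control replicate 1 and at least 53.4% in the other 5 libraries.

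The sodium-coupled carriers of glutamine both had lower means in Model than in Control. From Model to MUS their means went in opposite directions, and neither was a DEG there. Slc1a5 (ASCT2) had 7.73 and 11.95 FPKM in Control, 4.99 and 4.96 in Model, with 2.74 and 4.35 in MUS. Its 3 groups did not overlap and were ordered Control, Model, MUS. The means were 9.84 ± 2.98, 4.98 ± 0.0193 and 3.55 ± 1.14 FPKM (SD, n = 2 each). The log2 difference was -0.83 (SE 0.28) in Model vs. Control, -0.42 (SE 0.28) in MUS vs. Model and -1.25 (SE 0.28) in MUS vs. Control. Slc38a2 (SNAT2) had 9.17 and 14.0 FPKM in Control, 7.08 and 11.2 in Model, with 11.6 and 12.2 in MUS. On the deposited scale Control and Model overlapped, and both MUS libraries were above both Model libraries, by 0.38 (SE 0.30). Scaled by the fragments on genes, both Model libraries were below Control, and Model and MUS overlapped.

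The ratio of Slc1a5 to Slc38a2 was 0.843 and 0.854 in Control, 0.705 and 0.445 in Model, with 0.237 and 0.358 in MUS. Neither pair of neighbouring groups overlapped in this ratio. Slc43a2 came to 29.2% and 38.0% of the FPKM of Slc3a2 in Control, 0.798% and 1.29% in Model, with 1.15% and 1.04% in MUS. The ratio of Slc7a8 to Slc7a5 was 7.80 and 7.22 in Control, 8.64 and 8.05 in Model, with 14.1 and 11.3 in MUS. Both MUS libraries were above the other 4 in it. With 2 libraries against 2, an exact permutation test cannot give a two-sided p below 0.333, and none was run on the ratios.

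**Figure D3:**
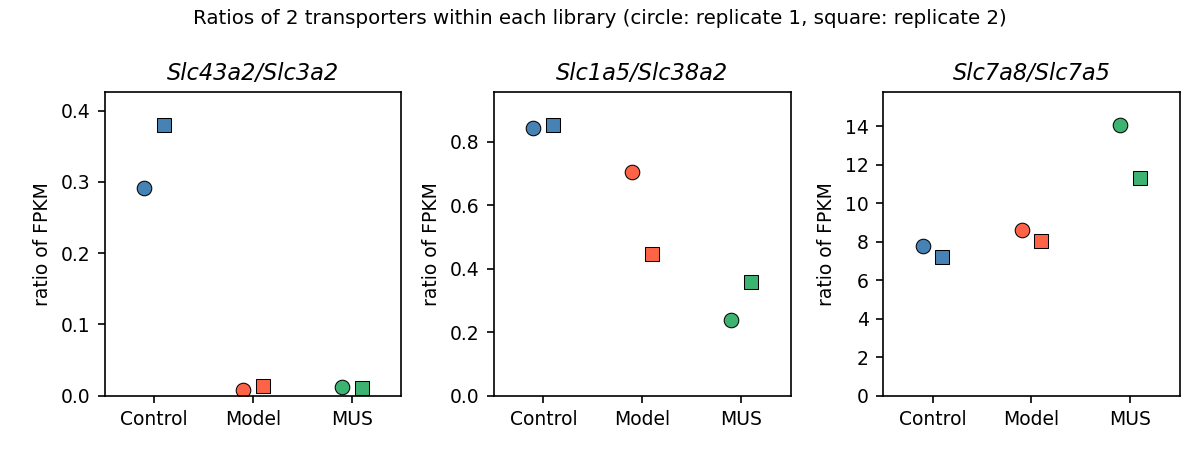
Ratios of FPKM within each library for Slc43a2 to Slc3a2, Slc1a5 to Slc38a2 and Slc7a8 to Slc7a5 (linear axes from 0), with replicate 1 as circles and replicate 2 as squares. Slc1a5 to Slc38a2 steps down from 0.843 and 0.854 in Control to 0.237 and 0.358 in MUS.

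Slc43a3, a member of the SLC43 family known to carry purine nucleobases and not amino acids, stayed low. It had 0.343 and 1.11 FPKM in Control, 0.508 and 0.535 in Model, with 0.652 and 0.786 in MUS, from 32 to 113 fragments. Slc43a2 was 80.3 and 28.1 times Slc43a3 in Control and between 1.51 and 2.22 times in the other 4 libraries.

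FPKM are per length, so the levels of the genes can be ordered within a group. In Control the order of the means was Slc3a2, Slc7a11, Slc7a8, Slc43a2, Slc38a2, Slc1a5, Slc7a7, Slc7a5 and Slc43a3. Neighbours that overlapped in it were Slc7a11, Slc7a8 and Slc43a2, Slc38a2 with Slc1a5, and Slc7a7 with Slc7a5. The place of Slc7a11 rests on Control replicate 2, since its 2 Control libraries also span the levels of Slc38a2, Slc1a5 and Slc7a7 and overlap Slc7a5. In Model and in MUS the order was Slc7a11, Slc3a2, Slc7a8, Slc38a2, Slc7a7, Slc7a5, Slc1a5, Slc43a2 and Slc43a3. Of the neighbours, Slc7a11 overlapped with Slc3a2 in both groups, as did Slc7a7 with Slc7a5, and Slc7a5 with Slc1a5. Slc43a2 thus stood above both sodium-coupled carriers in Control and next to last in both treated groups.

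Replicates of Control differed in one direction for most members, with 8 of 9 higher in Control replicate 2 and Slc3a2 lower, against 53.2% of all genes tested. In Model 7 of 9 and in MUS 6 of 9 members were higher in replicate 2, against 48.0% and 49.7% of all genes tested. The 9 include Slc43a3, which was not among the genes tested. Apart from Slc7a11 in Control, no member differed between replicates by more than 1 on the log2 scale of FPKM + 1.

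Model vs. Control asked how LPS and ATP changed expression. With limma, genes whose adjusted p did not exceed 0.05 and whose log2 fold change was over 1 in size were called DEGs. They made up 15.1% of the 9794 genes tested, with 9.5% higher and 5.56% lower. Of the 8 members tested 1 met these thresholds, Slc43a2, which was lower. Slc1a5 also met them when the values were scaled by the fragments on genes (-1.33) and with voom on the recovered fragments (-1.50), and Slc7a11 met them without Control replicate 2 (4.40). Libraries did not overlap for 4 of the 8 members, against 61.1% of all genes. They were higher in Model for Slc7a7 and Slc7a11 (32.6% of all genes) and lower for Slc43a2 and Slc1a5 (28.5%). This sorting holds on the deposited scale. Scaled by the fragments on genes, Slc7a11 overlapped, and Slc7a7, Slc3a2 and Slc38a2 were lower in Model without overlap, as were Slc43a2 and Slc1a5. The median of the 8 differences was 0.19, and that of all genes 0.04. Because the members were chosen with this contrast in view, nothing is read from these counts.

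MUS vs. Model asked what muscone added to LPS and ATP. With limma, 0 of the 8 members met the DEG thresholds, 0 had an unadjusted p under 0.05, and voom on the recovered fragments also called 0. Over all genes 0% were DEGs and 8.42% had an unadjusted p under 0.05. With a pseudocount of 0.1, 1 gene was called. The study itself, with DESeq2 at the same thresholds, did report DEGs in this comparison. The 0% therefore belongs to this fit and does not show that muscone changed no transcript. The differences of the members ran from -0.42 for Slc1a5 to 0.38 for Slc38a2, with a median of 0.15 against 0.01 for all genes. Libraries did not overlap for 4 of the 8, against 42.1% of all genes. They were higher in MUS for Slc3a2 and Slc38a2 (21.2% of all genes) and lower for Slc7a7 and Slc1a5 (21% of all genes). Scaled by the fragments on genes, Slc38a2 overlapped. Within batches Slc1a5 differed by -0.68 and -0.16, Slc38a2 by 0.64 and 0.12, and Slc3a2 by 0.11 and 0.29. Slc7a11 differed by 0.80 in batch 1 and -0.09 in batch 2.

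In MUS vs. Control, which shares its Control libraries with Model vs. Control and its MUS libraries with MUS vs. Model, 20.2% of all genes were DEGs. Of the 8 members 2 met the thresholds, both lower, against 8.91% of all genes. These were Slc43a2 at -3.79 (SE 0.21) and Slc1a5 at -1.25 (SE 0.28). As in Model vs. Control, nothing is read from these counts, since the choice of members used the same Control libraries. Slc1a5 did not meet the thresholds without MUS replicate 1, without MUS replicate 2, without Control replicate 2 or without the filter on low values, and its difference over the 16 alternatives ran from -2.01 to -0.96. Slc7a11, at 2.83 (SE 1.07) with 4.90 in batch 1 and 0.75 in batch 2, met the thresholds with the batch as a replicate block and without Control replicate 2. Libraries did not overlap for 5 of the 8 members, against 73.3% of all genes. They were higher in MUS for Slc7a8, Slc7a11 and Slc3a2 (39.6% of all genes) and lower for Slc43a2 and Slc1a5 (33.8%). This sorting, too, holds on the deposited scale. Scaled by the fragments on genes, Slc7a8 and Slc3a2 overlapped, and the difference of Slc3a2 was -0.23. On that scale Slc7a7 and Slc38a2 were also lower in MUS without overlap, and only Slc7a11 remained higher.

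**Figure D4:**
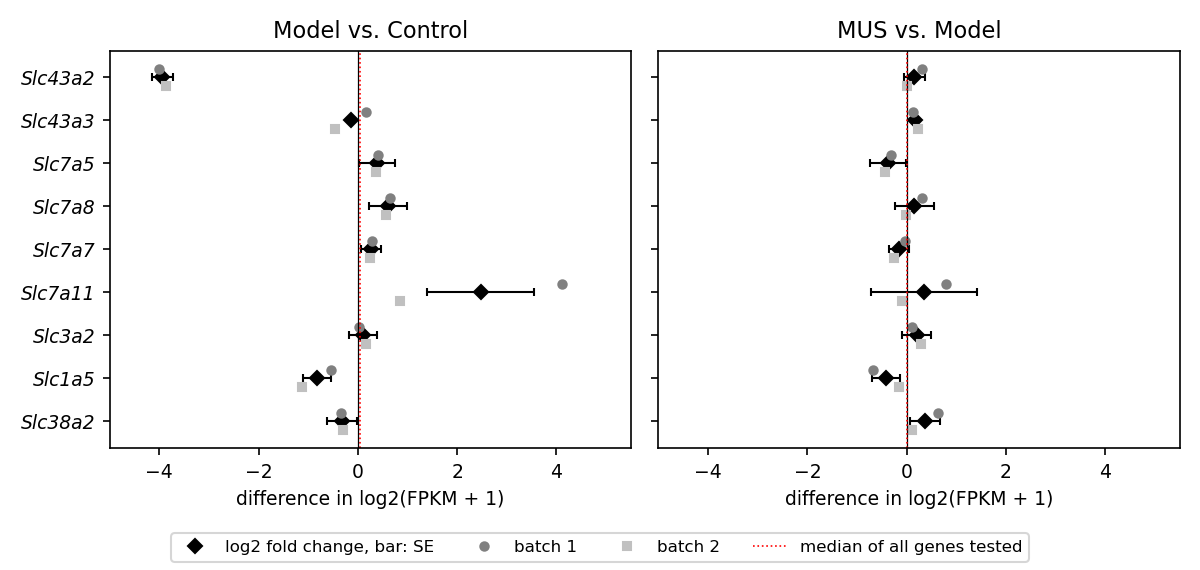
Differences in log2(FPKM + 1) of the 9 transporter genes for Model vs. Control (left) and MUS vs. Model (right), with diamonds for the estimate, bars for its SE (none for Slc43a3, which was not tested), grey circles for batch 1, grey squares for batch 2 and a dotted line for the median of all genes tested. Slc43a2 lies at -3.94 in Model vs. Control and at 0.15 in MUS vs. Model, and the batches of Slc7a11 lie 4.11 and 0.84 above Control.

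The genes whose pattern over the 6 libraries lay nearest to that of Slc43a2 were Cd300lb, Tmem86a and Pdxk, by Euclidean distance between centred log2(FPKM + 1) values (0.913, 1.17 and 1.36). Cd300lb, a receptor of myeloid cells, had 96.7 and 66.2 FPKM in Control and between 4.88 and 8.93 in the other 4 libraries. Nearest to Slc7a11 were Fpr1, Rasgrp1 and Icam1 (0.518, 0.645 and 0.720). Fpr1, a receptor for formylated bacterial peptides, had 3.47 and 80.1 FPKM in Control and 113 to 175 in the others, and Icam1, an adhesion molecule, had 5.68 and 89.9 in Control and 114 to 160 in the others. All 3 neighbours of Slc7a11 shared the gap between the Control libraries, which follows from the choice, since that gap enters the distance by which they were picked.

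Other genes of amino acid transport and use were taken from 6 lists of known function, of which 88 of 138 genes had a mean of at least 1 FPKM. In Model vs. Control 4 of these 88 rose and 11 fell as DEGs, and 73 did not pass, against 15.1% of all genes called (9.5% higher and 5.56% lower). The same shares stand beside the counts of each list below in this comparison, and nothing is read from those counts. The median of the 88 was -0.24, and that of all genes 0.04. The count was 7 without Control replicate 1, 5 without Model replicate 1, 7 without MUS replicate 1 and 7 without MUS replicate 2, and 26 when scaled by the fragments on genes, then with 2 higher and 24 lower. In MUS vs. Model 0 of the 88 were DEGs with limma and 0 with voom, 6 had an unadjusted p under 0.05, and the smallest adjusted p was 0.378. Without the filter on low values, only Ctns and Sesn1 of these lists were called in Model vs. Control, and again in MUS vs. Control. Each other DEG of these lists named below lost its call there, also where only other losses are given.

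Plasma membrane carriers beyond the 9 were mostly low, with 32 of 40 below a mean of 1 FPKM and 4 of them listed at 0 in each library. Of the 8 tested, 1 was a DEG in Model vs. Control. Slc7a2 (CAT2), a carrier of arginine and other cationic amino acids, had 6.04 and 71.0 FPKM in Control, 369 and 613 in Model, with 632 and 585 in MUS. It rose by 4.40 (SE 0.96, limma adjusted p = 0.0246) in Model vs. Control, with adjusted p up to 0.160 among its 16 alternatives, 9 of which called it. The calls were lost without either Model or either MUS library, and Control replicate 2 was again the higher Control library. Slc38a1, a relative of Slc38a2, had 3.85 and 5.55 FPKM in Model and 6.92 and 7.05 in MUS (difference 0.50, SE 0.23, limma adjusted p = 0.630).

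Among the lysosomal carriers, 4 of the 9 tested fell and 1 rose as DEGs in Model vs. Control. In 8 of the 9 both Model libraries were below both Control libraries, against 28.5% of all genes, and the median was -0.56. Ctns (cystinosin), which exports cystine from the lysosome, had 12.1 and 9.82 FPKM in Control, 1.504 and 2.53 in Model, with 2.07 and 2.74 in MUS. It fell by 2.00 on the log2 scale (SE 0.25, limma adjusted p = 0.00447) and was called in each of its 16 alternatives, with adjusted p up to 0.0492. Mfsd12, which is needed for cysteine import into lysosomes, had 58.2 and 51.0 FPKM in Control and 9.58 and 15.2 in Model, so it fell by 2.08 (limma adjusted p = 0.0163). Slc36a1, a proton-coupled exporter of small amino acids, had 20.1 and 9.20 FPKM in Control and 3.20 and 3.92 in Model, so it fell by 1.69 (limma adjusted p = 0.0212). Its relative Slc36a4, named after its values were seen, went from 25.3 and 30.5 to 9.66 and 13.7 FPKM (-1.20, limma adjusted p = 0.0252). Slc15a3, a proton-coupled carrier of histidine and peptides, was the one that rose, from 95.3 and 119 to 295 and 307 FPKM (1.49, limma adjusted p = 0.0261). Mfsd12 lost its call without Control replicate 1 and without Model replicate 1 (adjusted p up to 0.107), Slc36a1 without 5 of the 6 single libraries (up to 0.131, called without Control replicate 2), Slc36a4 without 5 of the 6 (up to 0.0946, called without Model replicate 2), and Slc15a3 in 11 of its 16 alternatives (up to 0.231). In MUS vs. Model none of the 9 was a DEG by limma, and Pqlc2, an exporter of cationic amino acids, had 2.98 and 1.71 FPKM in Model and 1.17 and 1.52 in MUS (-0.49, limma adjusted p = 0.700).

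Genes of glutathione synthesis and use gave 1 DEG of 7 tested in Model vs. Control. Gclc, the catalytic subunit of the first enzyme that uses imported cysteine, had 14.3 and 27.4 FPKM in Control, 7.32 and 7.97 in Model, with 12.3 and 9.63 in MUS. It fell by 1.27 (SE 0.33, limma adjusted p = 0.0412) and lost the call in 7 of its 16 alternatives, among them without Control replicate 2, either Model or either MUS library (adjusted p up to 0.170). Gpx4, which reduces lipid hydroperoxides with glutathione, had 91.6 and 98.3 FPKM in Control, 80.2 and 45.5 in Model, with 12.8 and 24.5 in MUS. Its difference was -1.71 (SE 0.41, limma adjusted p = 0.378) in MUS vs. Model, and -2.35 in MUS vs. Control (limma adjusted p = 0.00934, and 0.102 at most among its alternatives, lost without MUS replicate 1 and without the filter on low values). Gpx1, the cytosolic peroxidase, differed by -1.61 in MUS vs. Control (limma adjusted p = 0.0317, up to 0.250, lost without either MUS library or Control replicate 1).

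Of 27 tested genes that respond to amino acid shortage through ATF4, the factor known to induce Slc7a11, Slc3a2 and Slc38a2, 1 rose and 1 fell in Model vs. Control, and the median was -0.21. Wars, the tryptophanyl-tRNA synthetase, which interferon also induces, rose from 14.4 and 13.4 to 27.5 and 37.5 FPKM (1.15, limma adjusted p = 0.0302), a call lost in 11 of its 16 alternatives, among them each other scale. Ddit3 (CHOP) fell from 10.6 and 6.66 to 1.94 and 2.98 FPKM (-1.46, limma adjusted p = 0.0163), a call lost without Control replicate 1 and without Model replicate 1 (adjusted p up to 0.103). Atf4 itself, named after its values were seen, had 89.8 and 54.4 FPKM in Control, 57.5 and 41.6 in Model, with 30.9 and 40.0 in MUS, and passed in neither Model vs. Control (limma adjusted p = 0.351) nor MUS vs. Model (limma adjusted p = 0.781). Atf5 had 8.53 and 4.76 FPKM in Model and 2.03 and 2.75 in MUS (-1.14, limma adjusted p = 0.400).

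Of 25 tested genes of amino acid sensing by mTORC1, 3 fell in Model vs. Control, 22 did not pass, and the median was -0.14. Sesn1, of the sestrin family that restrains mTORC1 when leucine is scarce, had 15.9 and 9.32 FPKM in Control, 0.996 and 0.843 in Model, with 0.748 and 1.00 in MUS. It fell by 2.78 (SE 0.28, limma adjusted p = 0.00220) and was called in each of its 15 alternatives (adjusted p up to 0.0356). Rragd, a Rag GTPase, fell by 1.66 (limma adjusted p = 0.0111), from 5.72 and 3.15 to 0.794 and 0.549 FPKM, and lost the call only where no filter on low values was used (0.0848). Flcn, which acts on the Rag GTPases, fell by 1.33 (limma adjusted p = 0.0307, up to 0.150, called without Control replicate 2 and lost without each of the other 5 libraries). Lamtor1, which anchors the complex to the lysosome, had 30.8 and 18.6 FPKM in Model and 8.29 and 11.9 in MUS (-1.19, limma adjusted p = 0.433).

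Of 12 tested genes of branched-chain amino acid and glutamine use, 1 rose and 2 fell in Model vs. Control. Ppm1k, the phosphatase that switches on the breakdown of branched-chain keto acids, rose from 1.14 and 1.23 to 6.73 and 4.88 FPKM (1.63, SE 0.24, limma adjusted p = 0.00697). It lost the call only where no filter on low values was used (adjusted p = 0.0618). Bckdk, the kinase that switches the same step off, fell from 8.17 and 5.87 to 2.99 and 2.67 FPKM (-1.05, limma adjusted p = 0.0283, lost without Control replicate 1, either Model or either MUS library, up to 0.153). Glul, glutamine synthetase, fell from 38.6 and 20.1 to 6.38 and 8.20 FPKM (-1.81, limma adjusted p = 0.0155, lost without Model replicate 1, up to 0.0994). In MUS the same 3 genes lay at 5.49 and 3.98 FPKM for Ppm1k, 1.81 and 2.60 for Bckdk and 7.35 and 9.28 for Glul, and 0 of the 12 were DEGs in MUS vs. Model by limma or voom, with 0 at an unadjusted p under 0.05. The largest difference without overlap there was Bcat2, the mitochondrial branched-chain aminotransferase, at -0.59 (limma adjusted p = 0.604).

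**Figure D5:**
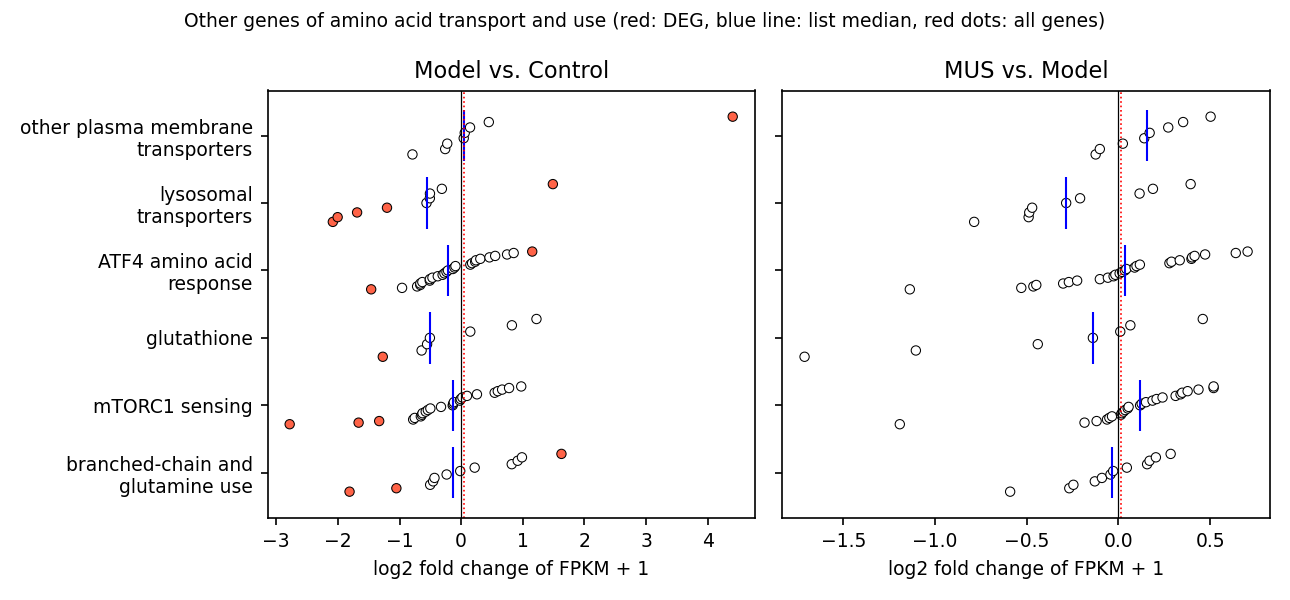
Log2 differences of the 88 other genes of amino acid transport and use, in 6 rows by list, for Model vs. Control (left) and MUS vs. Model (right, on another horizontal scale), with DEGs filled red, a blue line for the median of each list and a dotted line for the median of all genes tested. The 15 DEGs are all in Model vs. Control, and the median of the lysosomal carriers lies at -0.56.

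In MUS vs. Control 22 of the 88 genes were DEGs, 6 higher and 16 lower, against 20.2% of all genes. The count was 1 without MUS replicate 1, 7 without MUS replicate 2 and 14 without Control replicate 1. The log2 difference was -1.82 for Ctns (limma adjusted p = 0.00478), -2.87 for Mfsd12 (0.00481), -2.82 for Sesn1 (0.00186) and -1.97 for Lamtor1 (0.00864). Sesn1 was called without each single library, and the other 3 lost the call without MUS replicate 1 (adjusted p over their alternatives up to 0.0643, 0.0549 and 0.102). Slc7a2 rose by 4.76 (limma adjusted p = 0.0150, lost without either MUS library). Slc15a3 at 1.20, Atf3 at 1.22 and Seh1l at 1.00 passed without the batch as a block (limma adjusted p = 0.0393, 0.0377 and 0.0473) and not with it (0.0560, 0.0658 and 0.0586).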

How the data were processed

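The deposited data were a single table of the authors' FPKM with a column for each library, and the methods name RSEM for the quantification. The submitters' processing notes name HISAT2, featureCounts 1.5.0-p3 and GRCm39, while 98.3% of the 54409 gene identifiers found in GENCODE M21 had their GRCm38 positions, so GRCm38 is given here. Within a library, the products of FPKM and gene length were whole multiples of 1 step (tolerance 0.1 of it), which gave back the fragments per gene. These cover counting error only.

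The fit used limma 3.58.1 in R 4.3.3 (lmFit and eBayes with trend) on log2(FPKM + 1). It took the 9794 genes whose mean reached 1 FPKM and held all 6 libraries and the 3 groups in a single model. Benjamini-Hochberg adjustment ran over those genes. DEGs had an adjusted p not above 0.05 and a log2 fold change over 1 in size. The fit was also run on simulated data with independent normal noise and large differences set in Model. The simulation held no gap between the Control libraries and no shift of scale, so it does not measure how the calls fare under these. p-values measure the spread between these libraries, with 3 residual degrees of freedom. The spread of each gene was drawn toward a trend over all genes tested, which added 4.04 prior degrees of freedom.

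The labels give the replicate number as the batch and so pair the samples. The differences between replicates 1 and 2, correlated across genes, gave 0.12 between Control and Model, 0.14 between Model and MUS, and -0.09 between MUS and Control. The block was used as an alternative.

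Named genes were the members, up to 3 rising and 3 falling DEGs without overlap per list and comparison (or in MUS vs. Model the largest difference without overlap), and the 3 nearest genes of Slc43a2 and Slc7a11. From those of MUS vs. Control, some are left to their counts. Members and lists were chosen with earlier results of these data known. Promoter sequences came from RefSeq (GRCm38.p6). Figures were drawn in Python 3.11.15 with Matplotlib 3.10.9.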

Additional observations from a re-analysis of the deposited data

How the results depend on the processing

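The 16 alternatives changed the pseudocount, the filter, the scale, the model or the libraries. Of 387 alternative values of the members' differences, 340 moved by less than the spread between replicates and 47 by more, and 31 had the other sign (11 in Model vs. Control, 3 in MUS vs. Model and 17 in MUS vs. Control), none of them of a called difference. Changes of filter or model leave these differences as they are, and leaving out a single library can never move them past this spread. Only the pseudocount, the scale and voom could do so. The 340 are therefore no measure of stability, and Slc7a11 in Model vs. Control ran from 0.55 to 4.40. With 2 libraries per group, leaving one out leaves a lone sample that is assumed to vary like the other groups. Depth limits Slc43a3, with 32 to 113 fragments, more than the other members. The cause of the changes below was not tested.

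In Model vs. Control, DEGs among the members went from 1 to 2 when scaled by the fragments on genes, when scaled without mitochondrial and the 20 highest genes, and with voom, and ranged from 1 to 2 when single libraries were left out (2 without Control replicate 2). In MUS vs. Control they went from 2 to 1 without the filter on low values and ranged from 1 to 2 without single libraries (1 without either MUS library), and were 3 with the replicate block. In MUS vs. Model they were 0 in each alternative, as were those among the other 88 genes.

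Among the other genes, DEGs in Model vs. Control went from 15 to 2 without the filter (134 genes tested, and more genes to adjust over), 26 when scaled by the fragments on genes, 26 when scaled without mitochondrial and the 20 highest genes, 35 with voom and 7 with only the 2 groups fitted, and ranged from 5 to 17 without single libraries. In MUS vs. Control they went from 22 to 2 without the filter, 14 at a mean of at least 5 FPKM and 36 with voom, and ranged from 1 to 25 without single libraries. With the replicate block they were 15 and 19.

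Among all genes, the share of DEGs in Model vs. Control that were higher was 63.1% on the deposited scale, 49.7% with quantile normalization, 28.4% scaled by the fragments on genes and 25.0% with voom. Apart from Slc7a11, Slc15a3, Atf3 and Seh1l in MUS vs. Control, the replicate block changed no call of a named gene.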
